A study of Rattus norvegicus with 12 samples.

Results

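The genes described here are the heme synthesis enzymes Alas1, Alas2, Alad, Uros, Urod, Cpox, Ppox and Fech, and Slc25a37, the mitochondrial iron importer mitoferrin-1. They were chosen by name, not by their values, and make up 9 of the 17379 gene features in the data. All 9 were found, each as a single RefSeq transcript, and all 9 passed the filter on low counts in every comparison. Transcripts were sequenced from tissue of a rat femoral defect model. Blood clot (hematoma) came from defects of 0.5 mm, termed normal healing, 1.5 mm, termed delayed healing, or 5.0 mm, termed nonunion. The reference group, preOP, was healthy femur cut out when 5.0 mm defects were made, with no treatment. Each of the 4 groups had 3 libraries, and every animal was a male SAS Fischer rat of 200 to 225 g. The time between surgery and collection is not given in the sources used here. The labels do not say that libraries of a group came from separate animals, or whether preOP and nonunion tissue came from the same ones. The p-values therefore measure the spread between these samples, which may be technical.

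Heme is the iron-bearing ring that gives hemoglobin its oxygen binding. Its synthesis starts in the mitochondrion with 5-aminolevulinate synthase, runs through cytosolic steps that build the porphyrin ring, and returns to the mitochondrion, where ferrochelatase inserts iron. Separate genes encode the synthase: Alas1 serves cells in general, and Alas2 serves developing red cells, which in the adult form in the bone marrow and make most of the body's heme.

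Totals ranged from 16808993 to 24325162 estimated reads per library. On the TMM-scaled scale of counts per 1e6 reads (CPM), 3 reads, the limit that a count of 0 allows, correspond to 0.462 in nonunion 2 and 0.115 to 0.185 in the other libraries. Globin genes took 15.66% to 23.98% of reads in preOP and 0.03% to 2.96% in hematomas, with the highest hematoma share in delayed 1. Ribosomal RNA took 72.24% of reads in nonunion 2 and at most 1.75% elsewhere. That lowers its depth for other genes, and 36 reads of Slc25a37 and 37 of Uros were its lowest counts among the 9 genes. Skeletal muscle markers (6 of 8 found) summed to 35528 CPM in delayed 2, to at most 4615 in other hematomas and to 3326 to 7394 in preOP. Adipocyte markers (8 of 8 found) summed to 13579.5 CPM in nonunion 2, to at most 2666 in other hematomas and to 1159 to 1564 in preOP. Osteoblast markers (8 of 8 found) summed to 2286 to 2543 CPM in preOP, 18435 to 27631 in normal, 4197 to 15535 in delayed and 4281 to 5269 in nonunion. The collagen gene Col1a1 made up most of each sum (4783 of 4828 CPM in delayed 1). Counted by gene against preOP, 6 of the 8 rose and 1 fell in normal, 1 rose and 5 fell in delayed, and 0 rose and 5 fell in nonunion. Of all 12846 genes tested, 2630 rose and 2836 fell in normal, 1615 rose and 2007 fell in delayed, and 1736 rose and 1913 fell in nonunion. The files of the normal group differed in form from the others, with a decimal point in 16.82% to 18.1% of read numbers against 100% elsewhere. In comparisons with normal, that difference and the group cannot be told apart.

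For the erythroid and the general synthase and for ferrochelatase, the 250 bases upstream of an annotated start site are shown. These are the first and last enzymes of the pathway, and the results set the levels of the synthases against each other. The sequences are from RefSeq on the build GRCr8, which held a window for 7 of the 9 genes and none for Cpox or Slc25a37. Capitals mark AGATAA or its reverse complement TTATCT, a core motif of GATA factors such as the red cell regulator Gata1.
Alas2: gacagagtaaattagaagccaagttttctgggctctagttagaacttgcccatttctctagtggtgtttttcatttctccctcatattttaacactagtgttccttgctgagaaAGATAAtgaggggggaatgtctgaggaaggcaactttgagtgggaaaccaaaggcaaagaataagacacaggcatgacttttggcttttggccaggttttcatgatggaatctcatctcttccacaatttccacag
Fech: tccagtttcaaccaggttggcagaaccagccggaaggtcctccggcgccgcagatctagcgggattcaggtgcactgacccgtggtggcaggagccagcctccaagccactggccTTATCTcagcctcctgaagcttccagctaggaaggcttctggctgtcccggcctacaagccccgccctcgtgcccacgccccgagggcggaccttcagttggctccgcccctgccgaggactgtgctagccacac
Alas1: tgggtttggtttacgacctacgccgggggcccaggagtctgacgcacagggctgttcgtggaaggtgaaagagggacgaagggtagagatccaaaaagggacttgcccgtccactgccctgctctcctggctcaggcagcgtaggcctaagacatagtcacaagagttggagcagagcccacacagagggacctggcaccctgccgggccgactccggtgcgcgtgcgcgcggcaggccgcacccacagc
The Alas2 window lies at chrX:22895200-22895449 on the plus strand, and its start site is 4800 bases downstream of the start of the gene model. The Alas2 window thus lies after that start, not upstream of it. The Fech window lies at chr18:60248526-60248775 on the minus strand. The Alas1 window lies at chr8:115768643-115768892 on the minus strand. In Alas2 the motif stood 136 to 131 bases before the window's start site, on the gene's own strand. In Fech it stood 135 to 130 bases before its window's start site, on the opposite strand. Neither the motif nor its reverse complement was present in the windows of Alas1, Alad, Uros, Urod or Ppox. The start sites of the Uros and Ppox windows also lie downstream of their gene model starts, by 955 and 782 bases. Of all 33469 windows of this length, 10.3% held the motif or its reverse complement. CACCC (reverse complement GGGTG), the core of a motif of the red cell factor Klf1, had 2 matches in Alas1 and 1 in Alad, and 49.2% of all windows held it. A match in a window is a match of letters only.

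The comparison with preOP asks how the clot differs from the healthy femur pieces. In CPM, every heme synthesis gene was lower in each hematoma library than in each preOP library. In the mean of the 3 hematoma groups all 9 fell (edgeR quasi-likelihood F-test, Benjamini-Hochberg adjusted p below 0.05), being 2.27-fold lower for Alas1 and 6.87-fold to 68.2-fold lower for the others. Among all 12846 genes tested, 23.0% were called lower and 17.6% higher in this comparison, and 17.7% were lower with no overlap between libraries. The median log2 fold change was -3.82 over the 9 genes and -0.02 over all genes. In bulk RNA, fewer cells of a type and less RNA per cell cannot be told apart.

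**Figure D1:**
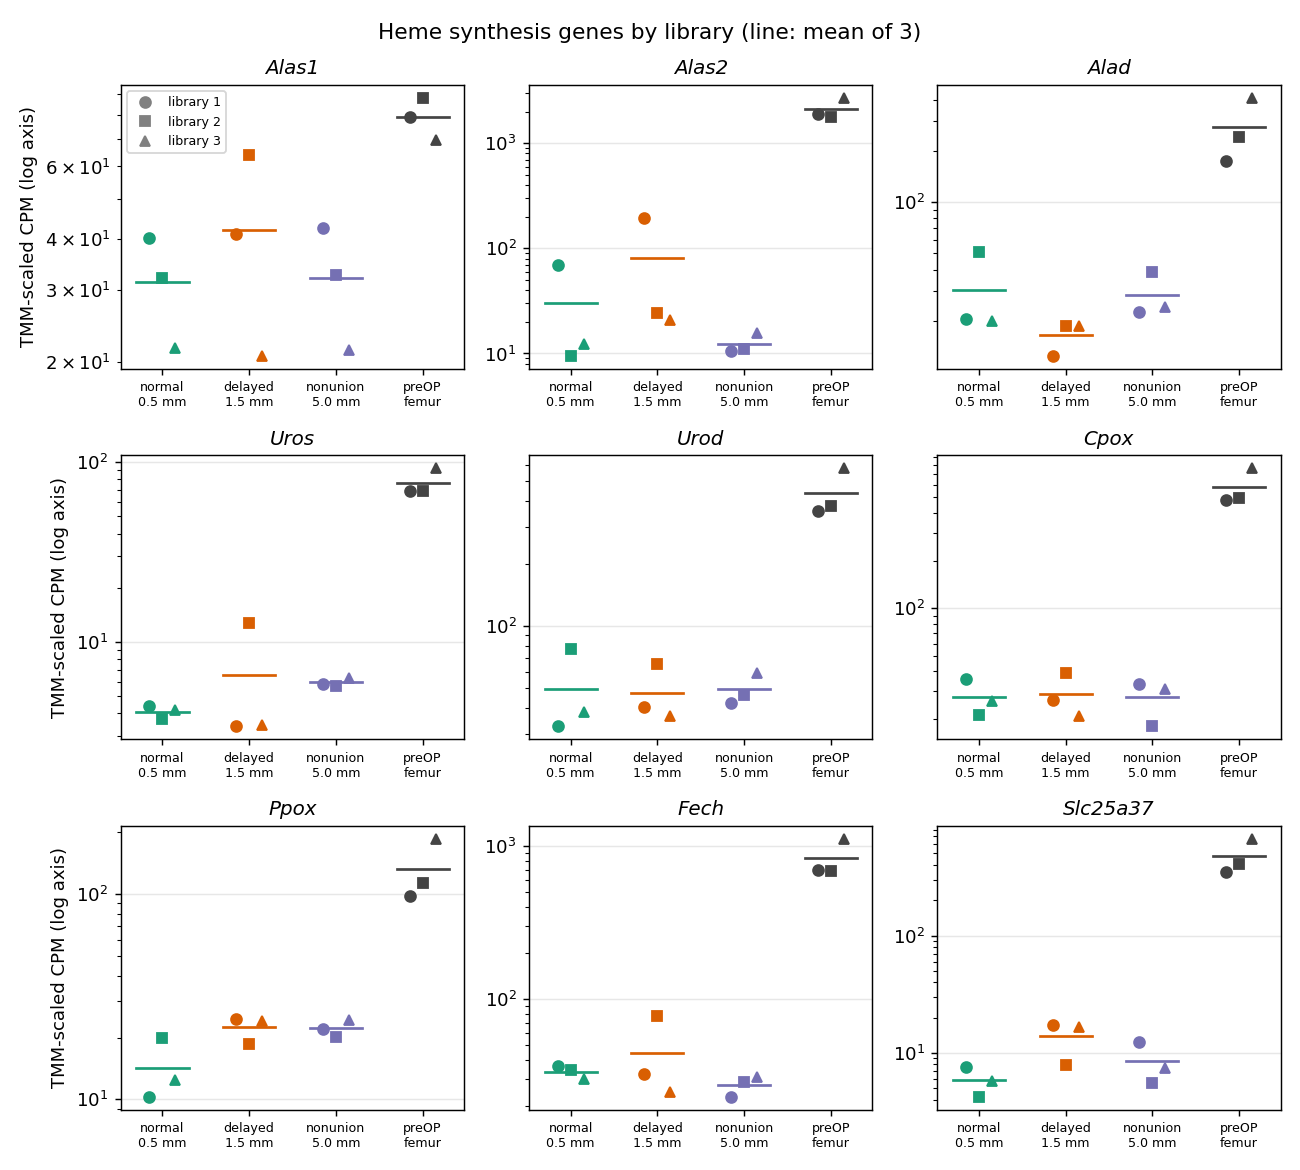
Level of each heme synthesis gene in each library, in CPM on a log axis, by group, with 1 point per library and a bar at the group mean. In every panel the 3 preOP points lie above all 9 hematoma points, with the widest gap for Slc25a37 and the narrowest for Alas1.

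Alas2, the synthase of red cells and the first, rate-limiting enzyme of their heme pathway, stood at 69.5, 9.49 and 12.4 CPM in normal, 196, 24.1 and 20.9 in delayed, 10.6, 11.1 and 15.6 in nonunion and 1900.3, 1785 and 2704 in preOP libraries 1 to 3. All 3 preOP libraries were high, and among hematomas delayed 1 and then normal 1 stood above the other 7, which lay between 9.49 and 24.1 CPM. Alas2 averaged 2129.9 ± 501 CPM (SD, n = 3) in preOP, and it fell by 6.09 on the log2 scale in the mean hematoma (SE 0.69, edgeR adjusted p = 7.9e-05). The group values were -6.13 in normal (SE 1.11), -4.73 in delayed (SE 1.03) and -7.42 in nonunion (SE 1.17). Delayed 1 and normal 1 set part of these sizes. Without delayed 1 the value for delayed was -6.44 (edgeR adjusted p = 0.0017), and without delayed 2 or delayed 3 it was -4.07. Without normal 1 the value for normal was -7.60 (edgeR adjusted p = 0.0016).

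Alas1, the synthase of cells in general, stood at 40.1, 32.1 and 21.6 CPM in normal, 41.0, 63.9 and 20.7 in delayed, 42.5, 32.5 and 21.3 in nonunion and 79.1, 88.2 and 69.7 in preOP libraries 1 to 3. The highest hematoma value, in delayed 2, was just under the lowest preOP value, so in CPM the groups did not overlap but lay close. They overlapped in TPM (transcripts scaled to a fixed total). Delayed 2 stood at 43.8 TPM, against 37.8, 42.2 and 26.5 in preOP libraries 1 to 3. Alas1 fell by 1.18 in the mean hematoma (SE 0.30, edgeR adjusted p = 0.0095), by 1.34 in normal (SE 0.40, edgeR adjusted p = 0.02) and by 1.30 in nonunion (SE 0.40, edgeR adjusted p = 0.032). Delayed did not pass, at -0.92 (SE 0.40, edgeR adjusted p = 0.11). These calls depend on single libraries. Without preOP 2 the mean hematoma value was -0.99 (edgeR adjusted p = 0.056), and normal and nonunion no longer passed (edgeR adjusted p = 0.064 and 0.098). Without normal 2 or normal 3, normal had adjusted p of 0.052 and 0.079 in the edgeR test. Nonunion had adjusted p of 0.082 and 0.12 without nonunion 2 or nonunion 3, and 0.077 and 0.061 without preOP 1 or preOP 3. Without delayed 2, the hematoma with the highest Alas1, delayed passed at -1.13 (edgeR adjusted p = 0.047).

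The cytosolic enzymes condense 5-aminolevulinate into the porphyrin ring. Alad, which joins 2 molecules of it into porphobilinogen, stood at 20.5, 50.7 and 20.0 CPM in normal, 12.4, 18.6 and 18.6 in delayed, 22.5, 38.5 and 24.0 in nonunion and 175, 239 and 409.6 in preOP libraries 1 to 3. Normal 2 and nonunion 2 were the highest hematomas, and preOP 3 was the highest preOP library. Alad fell by 3.50 in the mean hematoma (SE 0.32, edgeR adjusted p = 1.9e-05), with -3.18, -4.05 and -3.28 in normal, delayed and nonunion.

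Uros, which closes the ring to uroporphyrinogen III, stood at 4.36, 3.73 and 4.15 CPM in normal, 3.38, 12.7 and 3.43 in delayed, 5.81, 5.70 and 6.29 in nonunion and 68.7, 68.6 and 92.3 in preOP libraries 1 to 3. Delayed 2 stood above the other 8 hematomas, which lay between 3.38 and 6.29 CPM. Uros fell by 3.82 in the mean hematoma (SE 0.33, edgeR adjusted p = 1.3e-05). The group values were -4.23 in normal, -3.56 in delayed and -3.69 in nonunion, and the value for delayed was -4.26 without delayed 2.

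Urod, which removes carboxyl groups from the ring, stood at 32.7, 77.1 and 38.3 CPM in normal, 40.5, 65.3 and 36.9 in delayed, 42.6, 46.5 and 59.0 in nonunion and 358, 380.0 and 578 in preOP libraries 1 to 3. Normal 2 and delayed 2 were the highest hematomas, and all preOP libraries lay far above them. Urod fell by 3.17 in the mean hematoma (SE 0.27, edgeR adjusted p = 1.3e-05) and by about the same amount in each group, with -3.15 in normal, -3.21 in delayed and -3.15 in nonunion.

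The last enzymes lie in the mitochondrion. Cpox, which oxidises coproporphyrinogen, stood at 35.9, 21.1 and 25.9 CPM in normal, 26.4, 39.0 and 20.9 in delayed, 33.5, 18.0 and 31.1 in nonunion and 481, 493 and 762 in preOP libraries 1 to 3. Its 9 hematoma values spanned 18.0 to 39.0 CPM, a narrow range beside the distance to preOP. Cpox fell by 4.37 in the mean hematoma (SE 0.25, edgeR adjusted p = 1.2e-06), with -4.39, -4.33 and -4.39 in normal, delayed and nonunion.

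Ppox, which oxidises the ring to protoporphyrin, stood at 10.3, 20.0 and 12.5 CPM in normal, 24.6, 18.7 and 24.2 in delayed, 21.9, 20.0 and 24.4 in nonunion and 98.0, 113 and 186 in preOP libraries 1 to 3. Normal 1 and normal 3 were the lowest libraries. Ppox fell by 2.78 in the mean hematoma (SE 0.22, edgeR adjusted p = 9.2e-06), the smallest fall of the 9 genes after Alas1. The group values were -3.21 in normal, -2.55 in delayed and -2.58 in nonunion.

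Fech, the ferrochelatase that inserts iron, stood at 36.3, 34.3 and 30.1 CPM in normal, 32.2, 77.0 and 24.6 in delayed, 22.9, 28.8 and 30.8 in nonunion and 692, 688 and 1112 in preOP libraries 1 to 3. Delayed 2 stood apart from the other 8 hematomas, which lay between 22.9 and 36.3 CPM. Fech fell by 4.59 in the mean hematoma (SE 0.29, edgeR adjusted p = 2e-06), with -4.63, -4.22 and -4.92 in normal, delayed and nonunion.

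Slc25a37, which carries iron across the inner mitochondrial membrane to ferrochelatase, stood at 7.62, 4.22 and 5.81 CPM in normal, 17.3, 7.94 and 16.6 in delayed, 12.5, 5.55 and 7.49 in nonunion and 346, 407 and 667 in preOP libraries 1 to 3. The hematomas reached at most 17.3 CPM, in delayed 1, far below the lowest preOP library. Slc25a37 fell by 5.73 in the mean hematoma (SE 0.31, edgeR adjusted p = 7.9e-07). The group values were -6.33 in normal (SE 0.50), -5.08 in delayed (SE 0.47) and -5.78 in nonunion (SE 0.49).

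Counted by group, 9 of 9 genes were called lower in normal, 8 of 9 in delayed and 9 of 9 in nonunion. The shares of all tested genes called lower were 22.1%, 15.6% and 14.9%. In CPM, all 9 genes were lower without overlap in each group, against 36.4%, 30.1% and 28.0% of all genes. The median log2 fold change over the 9 genes was -4.23 in normal, -4.05 in delayed and -3.69 in nonunion. These comparisons share the same 3 preOP libraries, so they are not independent of each other.

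**Figure D2:**
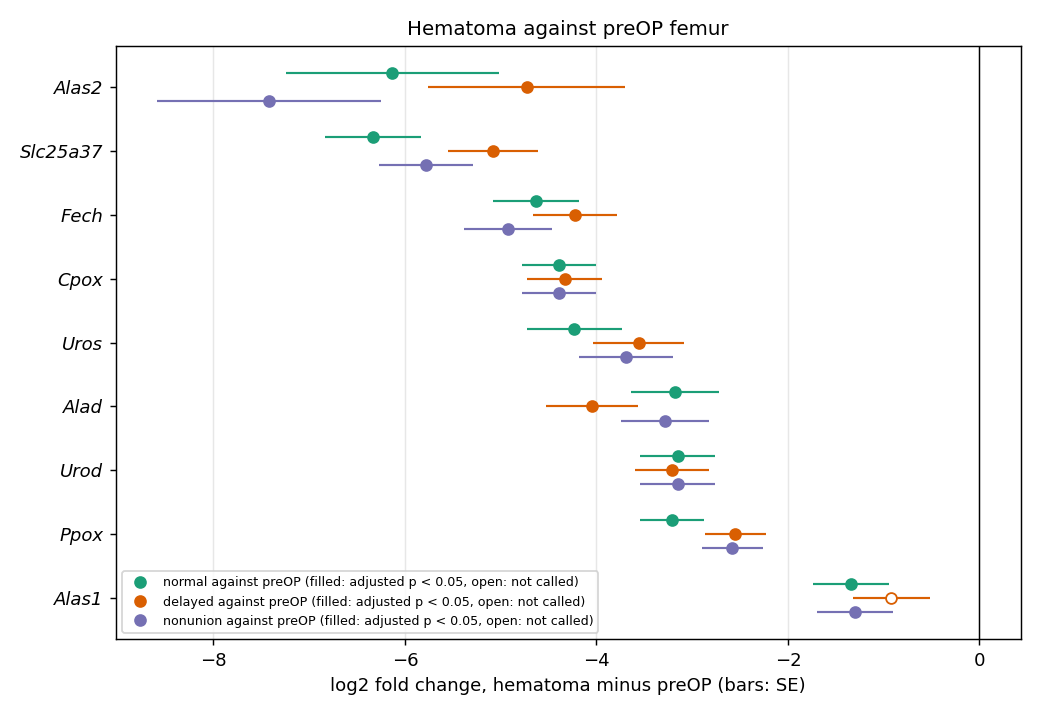
Log2 fold change of each gene in normal, delayed and nonunion hematoma minus preOP, with bars of 1 SE from the edgeR fit of 12 libraries; filled points had an adjusted p below 0.05. All 27 points lie below 0, Alas2 and Slc25a37 farthest to the left, and the open point is Alas1 in delayed.

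Levels were compared between genes in TPM (transcripts scaled to a fixed total), which divides by transcript length. In preOP, Alas2 was the most abundant of the 9 at 1085 ± 102 TPM (SD, n = 3). Urod followed at 376 ± 48.5, then Slc25a37 at 296 ± 64.0, Fech at 258 ± 38.7, Alad at 227 ± 69.0 and Cpox at 195 ± 25.6 TPM (SD, n = 3 each). Neighbours among these 5 differed by less than the sum of their SDs. Within each preOP library Urod, Slc25a37, Fech and Alad kept this order, in places by little (Slc25a37 239 and Fech 236 TPM in preOP 1). Cpox was above Alad in preOP 1 (178 and 161 TPM) and below it in preOP 2 and preOP 3, so the order of Alad and Cpox is not firm. Ppox at 71.1 ± 15.1, Uros at 48.6 ± 1.76 and Alas1 at 35.5 ± 8.11 TPM (SD, n = 3 each) were the least abundant, below Cpox and in this order in every preOP library.

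The makeup of the pathway differed between preOP and hematoma within libraries, where sample-wide scaling cancels. Of the summed TPM of the 9 genes, Alas2 made up 45.0, 40.9 and 40.2% in preOP. In hematomas its share was 47.9% in delayed 1, 26.3% in normal 1 and 3.03% to 9.86% in the other 7. Delayed 1 thus lay above the preOP range, and the groups overlapped. In those 7 hematomas Urod held the largest share, 29.7% to 40.6%, against 14.3, 14.8 and 14.4% in preOP. Alas1 held 0.889% to 1.73% in preOP and 7.15% to 16.1% in hematomas, with no overlap. These shares were described without a test.

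The balance of the synthases differed as well. Alas2 was 96.6, 95.9 and 97.8% of Alas1 plus Alas2 TPM in preOP. In hematoma libraries 1 to 3 it was 66.9, 25.5 and 40.0% in normal, 84.8, 30.6 and 54.2% in delayed and 22.5, 28.4 and 46.0% in nonunion. All hematomas were below all preOP libraries, and Alas1 was the more abundant synthase in 6 of the 9 hematomas. Slc25a28, mitoferrin-2, the importer of cells in general, stood at 26.3, 45.4 and 25.3 CPM in normal, 30.8, 30.3 and 48.6 in delayed, 28.0, 38.1 and 46.1 in nonunion and 38.8, 45.6 and 54.6 in preOP libraries 1 to 3. It did not pass the test in the mean hematoma, at -0.39 (SE 0.25, edgeR adjusted p = 0.23). Slc25a37 was 89.6, 89.6 and 92.2% of the summed TPM of both mitoferrins in preOP, 21.9, 8.26 and 18.2% in normal, 35.2, 20.2 and 24.8% in delayed and 30.1, 12.3 and 13.6% in nonunion. Mitoferrin-2 was thus the more abundant in all 9 hematomas and mitoferrin-1 in all 3 preOP libraries.

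**Figure D3:**
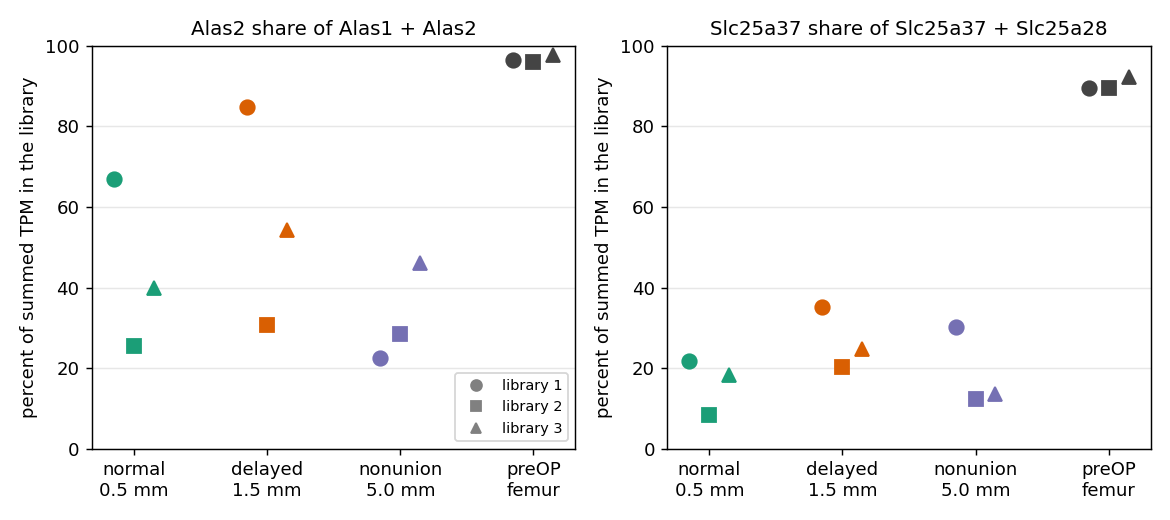
Share of Alas2 in Alas1 plus Alas2 (left) and of Slc25a37 in Slc25a37 plus Slc25a28 (right), in percent of summed TPM, with 1 point per library by group. The preOP points lie between 89.6% and 97.8%, and delayed 1 and normal 1 are the highest hematomas for Alas2.

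Other genes of the pathway came from a list of 10, of which 8 were found and tested. In the mean hematoma against preOP, 4 fell, 1 rose and 3 did not pass, beside 23.0% lower and 17.6% higher of all genes. Slc25a38, the mitochondrial carrier that brings glycine to the first step, stood at 77.4, 95.8 and 151 CPM in preOP and 11.2 to 20.9 CPM in hematomas, and fell by 2.82 (SE 0.22). Abcb10, a mitochondrial transporter that binds mitoferrin-1, stood at 257, 298 and 441 CPM in preOP and 8.82 to 30.3 CPM in hematomas, and fell by 4.64 (SE 0.28). The transporters Tmem14c and Abcb6 fell too, at -1.53 (SE 0.26) and -1.51 (SE 0.29), but not with limma on log2(TPM + 0.5) (-1.24, adjusted p = 0.27, and -1.14, adjusted p = 0.21). Pgrmc1, a heme-binding membrane protein, rose by 1.12 (SE 0.19), but did not pass with limma on log2(TPM + 0.5) (1.44, adjusted p = 0.11). Slc25a28, Clpx and Snx3 did not pass. In nonunion 2, where ribosomal RNA took 72.24% of reads, TPM of these genes were low. Tmem14c stood at 43.9 TPM there, against 545 in nonunion 1 and 554 in nonunion 3. The part of nonunion 2 in the calls lost with limma on log2(TPM + 0.5) was not tested.

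Of 7 regulators of heme and iron, 2 rose, 2 fell and 3 did not pass in the mean hematoma against preOP, so the counts each way are near those shares. Tfrc, the transferrin receptor that takes iron into cells, stood at 1636, 1578 and 2095 CPM in preOP and 67.5 to 188 CPM in hematomas, and fell by 3.96 (SE 0.27). Hmox1, which breaks heme down, moved the other way. It stood at 1041, 1594 and 1258 CPM in normal, 3721, 1111 and 3452 in delayed, 1305, 2259 and 1997 in nonunion and 464, 405 and 288 in preOP libraries 1 to 3. Delayed 1 and delayed 3 were highest, and every hematoma lay above every preOP library. Hmox1 rose by 2.28 (SE 0.42, edgeR adjusted p = 0.0015). Aco1, the iron sensor that regulates iron genes through their RNA, rose by 1.48 (SE 0.26). Bach1, a heme-sensing repressor, fell by 1.44 (SE 0.49, edgeR adjusted p = 0.036). That call was lost, at -1.20 to -1.40, without any of delayed 1 to 3, nonunion 2, nonunion 3 or preOP 1 to 3 (edgeR adjusted p = 0.064 to 0.12), and without globin genes (adjusted p = 0.056). With limma on log2(TPM + 0.5) it was -1.24 (adjusted p = 0.3).

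Markers of red cell precursors moved with the heme genes, and their part in the result was not tested. Of 20 listed erythroid markers 16 were found, and 16 of 16 fell in the mean hematoma against preOP, with a median log2 fold change of -6.59. None was at 0 in any library. Their summed level was 135524 to 239824 CPM in preOP, 2301 to 6413 in normal, 2670.5 to 23968 in delayed and 1224 to 1693 in nonunion. Without the 4 globins, whose near-identical copies can share reads, the sum was 7836 to 13039.6 CPM in preOP. It was 94.8, 17.5 and 29.2 CPM in normal, 96.6, 189 and 46.7 in delayed and 49.7, 100.3 and 40.8 in nonunion libraries 1 to 3. In delayed 2, Sptb, a spectrin that muscle also expresses, gave 146 CPM of that sum. Other markers moved as well, counted among those tested of 8 listed per type. In the mean hematoma 6 of 7 cell cycle genes and 5 of 7 neutrophil genes fell, and 4 of 7 macrophage genes rose. Of 8 osteoblast genes, 5 fell and 1 rose. None of 6 skeletal muscle or 8 adipocyte genes was called. Among all genes tested, 23.0% fell and 17.6% rose in this comparison.

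By the correlation of log2(CPM + 0.5) over the 12 libraries, the 5 genes most like Alas2 were Hbb-bs (r = 0.993), Hbb (0.987), Hba-a1 (0.983), Add2 (0.981) and Hba-a2 (0.98). In this order 4 of the 5 are globins, and Add2 encodes a protein of the red cell membrane skeleton. Those most like Alas1 were Rcsd1 (0.934), Prkcq (0.927), Cd6 (0.919), Il12rb2 (0.917) and Sptb (0.913). The 12 points fall into preOP and hematoma clusters, so these coefficients describe mainly the distance between those. Among hematomas, Alas2 and Hba-a1 had the same leading libraries: Hba-a1 stood at 8423 CPM in delayed 1 and 2969 in normal 1, and at 364 to 1312 in the other 7. For each 1000 globin reads there were 12.3, 12.6 and 10.9 reads of Alas2 in preOP, 10.6, 3.26 and 5.25 in normal, 7.75, 8.91 and 5.56 in delayed and 7.57, 9.06 and 8.74 in nonunion. The ratio was highest in the preOP libraries, with normal 1 close below.

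**Figure D4:**
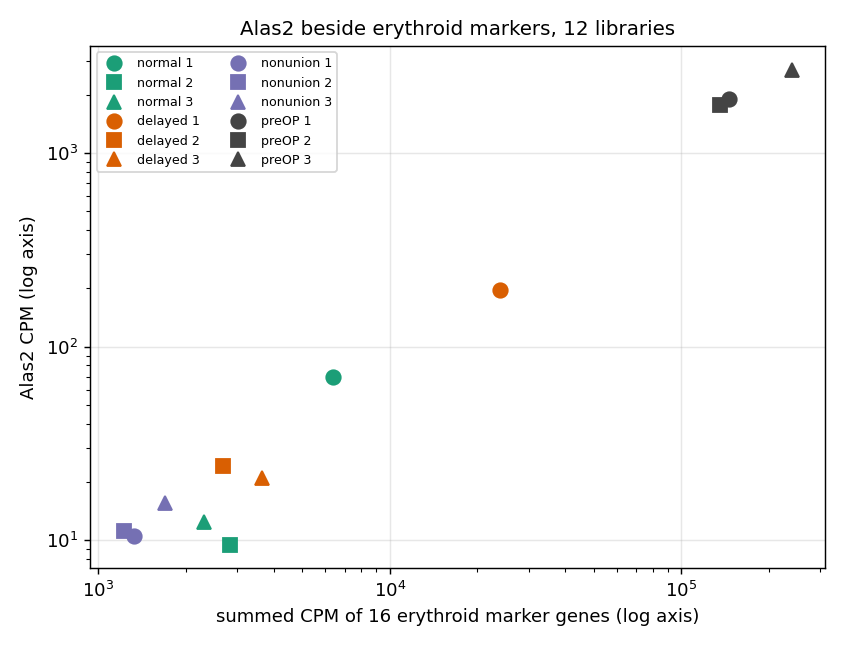
Alas2 in CPM against the summed erythroid markers in CPM, on log axes, with 1 point per library coloured by group. Globins made up most of each sum. Without them it was 94.8 CPM in normal 1, 96.6 in delayed 1 and 100.3 in nonunion 2, whose Alas2 was 69.5, 196 and 11.1 CPM. The preOP libraries lie at the upper right, and delayed 1 and then normal 1 have the highest Alas2 of the hematomas.

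The comparisons among hematomas ask whether the clot differs with the size of the defect. None of the 9 genes passed the edgeR test in any of them. Delayed against normal called 7.13% of 12474 genes and nonunion against normal 2.37%. Nonunion against delayed called 0% in edgeR and 184 genes in DESeq2. At an unadjusted p below 0.05, these comparisons had 1, 0 and 1 of the 9 genes, against 25.8%, 20.5% and 7.06% of all genes. The median log2 fold change of the 9 genes was 0.39, -0.04 and -0.15, against 0.02, -0.03 and -0.05 over all genes.

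In delayed against normal, Slc25a37 was higher in each delayed than each normal library. Its difference was 1.23 (SE 0.47, edgeR adjusted p = 0.15). It passed in DESeq2 (1.31, adjusted p = 0.04) and in edgeR without delayed 2 and nonunion 2 (1.60, adjusted p = 0.027); over the alternatives run its adjusted p ranged from 0.027 to 0.66. Alad was lower in each delayed than each normal library, by a difference of -0.87 (SE 0.40, edgeR adjusted p = 0.21), which was -0.29 without normal 2 (edgeR adjusted p = 0.65). Of all genes, 16.1% were higher and 20.4% lower without overlap here. Alas2 differed by 1.37 (SE 0.99, edgeR adjusted p = 0.41), and that value was -0.48 without delayed 1 and 2.87 without normal 1. Ppox differed by 0.66 (SE 0.30, edgeR adjusted p = 0.2). The other 5 genes differed by -0.06 to 0.62.

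In nonunion against normal, Uros and Ppox were higher in each nonunion than each normal library, where 14.1% of all genes were. Uros averaged 5.93 ± 0.311 CPM (SD, n = 3) and 4.08 ± 0.318 CPM (SD, n = 3), a difference of 0.47 (SE 0.53, edgeR adjusted p = 0.66). Ppox differed by 0.59 (SE 0.30, edgeR adjusted p = 0.31). Alas2 differed by -1.38 (SE 1.00, edgeR adjusted p = 0.47), and the value was 0.12 without normal 1. The other 6 genes differed by -0.35 to 0.46.

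In nonunion against delayed, Alas2 was lower in each nonunion than each delayed library, where 3.32% of all genes were. Its difference was -2.75 (SE 1.04, edgeR adjusted p = 0.64, range over the alternatives 0.31 to 1), and the value was -0.89 without delayed 1. Alad was higher in each nonunion than each delayed library, as were 5.6% of all genes, by a difference of 0.72 (SE 0.40, edgeR adjusted p = 0.8). The other 7 genes differed by -0.76 to 0.02. None of the 8 other pathway genes, 7 regulators or 16 erythroid markers passed in any comparison among hematomas.

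**Figure D5:**
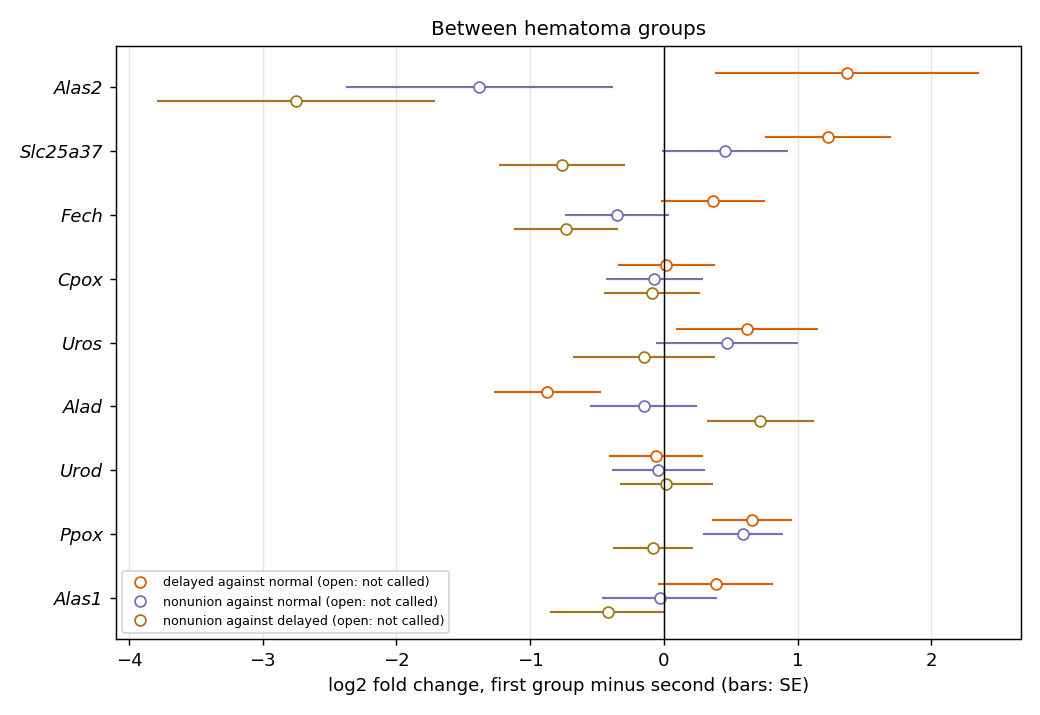
Log2 fold change of each gene in the 3 comparisons among hematomas, with bars of 1 SE from the edgeR fit of 9 libraries; none of the genes passed at an adjusted p below 0.05. Alas2 has the longest bars and the most distant point, at -2.75 in nonunion against delayed.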

How the data were processed

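RNA sequencing libraries came from 9 hematomas and 3 femur pieces. Per the labels' protocols, RNA was extracted with Trizol and 1 ug entered the Illumina TruSeq RNA kit. Per the submitters' processing notes, the tools were bcl2fastq 1.8.4, FastQC, Trimmomatic and Salmon and the genome build was rn6; further versions were not given in the sources used here. Per the file headers, the authors deposited expected counts (estimated reads per transcript, not scaled) as quantified by Salmon. Per the file headers, the deposited TPM are those reads divided by effective length and scaled to a fixed total. Each library lists 18321 RefSeq transcripts.

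From these, counts and TPM were summed by gene symbol through a RefSeq table (GRCr8) used for names and promoter windows. It matched 17367 transcripts to 16425 symbols; the other 954 stayed as single features. Estimated counts were then rounded. No 2 libraries were identical. Genes were tested in R 4.3.3 with edgeR 4.0.16: filterByExpr, TMM scaling, quasi-likelihood F-tests, two-sided, with Benjamini-Hochberg adjustment over all genes tested and calls at 0.05. Comparisons among hematomas used 1 fit of 9 libraries (12474 genes, 6 residual degrees of freedom). Comparisons with preOP used 1 fit of 12 libraries (12846 genes, 8 residual degrees of freedom), and the mean hematoma weighs its 3 groups equally. CPM values are TMM-scaled over 12 libraries. Each standard error (SE) is approximate: the size of the log2 fold change over the root of its F statistic. Totals were 16808993 to 24325162 estimated reads, and the limits given for 0 reads cover counting error only. The fit was also run on counts simulated from its own model, which cannot show that the model suits these data. Alternatives were DESeq2 1.42.0 and its size factors, limma 3.58.1 (voom, and on log2(TPM + 0.5)), a replicate block, unfiltered counts, other sets of libraries, fits without globin genes or ribosomal RNA, and leaving out each library. Within-library TPM shares were added after seeing the data. The 9 genes, the lists and the tests were chosen with earlier results of these data known. The text names all 9 genes, and genes of the pathway and regulator lists that were called or carry a step of the pathway; some genes of the pathway are not reported here. It also names the 5 genes most correlated with Alas2 and with Alas1. Marker genes named singly were chosen after their values were seen.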

Additional observations from a re-analysis of the deposited data

How the results depend on the processing

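Against preOP, Alas2, Alad, Uros, Urod, Cpox, Fech and Slc25a37 stayed lower and called under every alternative run. Ppox lost its call in delayed with limma on log2(TPM + 0.5) (-1.79, adjusted p = 0.12), and Alas1 lost its calls there in normal (-0.95), nonunion (-1.39) and the mean hematoma (-0.90). For the 9 genes together, nonunion 2 stood at 34.9 TPM, against 152 to 324 in the other hematomas. In CPM it stood at 207, against 171 to 394. The part of nonunion 2 in these lost calls was not tested. Alas1 in delayed was called with the replicate block (-1.03, adjusted p = 0.03) and without delayed 2 and nonunion 2 (-1.14, adjusted p = 0.036).

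Removing globin genes moved the median of all genes against preOP by 0.18 in delayed, 0.11 in nonunion and 0.12 in the mean hematoma, and the share of higher calls in delayed from 44.6% to 55.5%. Removing ribosomal RNA gave 0.18 and 55.7% in delayed. TPM moved that median by 0.64 in delayed against preOP and by -0.69 in nonunion against delayed. With TPM, higher calls were 14.3% of calls in nonunion against normal (37.5% in edgeR) and 22.6% in nonunion against preOP (47.6%). DESeq2 gave 47.6% in delayed against normal (37.6%) and 50.8% in nonunion against normal.

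Delayed against normal called 889 genes in edgeR, 2033 in DESeq2, 340 with TPM, 433 with the replicate block, 1820 with all 12 libraries in 1 fit, 2056 without delayed 2 and nonunion 2, and 175 to 726 leaving out single libraries. Of the 9 genes, 1 (Slc25a37) was called in DESeq2 and 1 (Slc25a37) without delayed 2 and nonunion 2. Nonunion against normal called 296 genes, 1310 in DESeq2, 148 with the block, 992 with all 12 libraries and 23 to 158 leaving out single libraries. Nonunion against delayed called 0, with 881 at an unadjusted p below 0.05, 184 in DESeq2, 60 without delayed 2 and nonunion 2, and 0 to 1 leaving out single libraries. Against preOP, TPM called 1975 genes in normal (5466 in edgeR), 1436 in delayed (3622), 1034 in nonunion (3649) and 2004 in the mean hematoma (5212). Leaving out single libraries gave 3952 to 4846, 2292 to 4030, 2334 to 4221 and 3568 to 6160. Leaving out libraries lowers the number of samples, but calls did not always fall. In the mean hematoma they rose from 5212 to 6160 without nonunion 2 and to 5952 without delayed 2. The cause of these shifts was not tested.

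Changes of sign occurred among uncalled values in comparisons among hematomas. In delayed against normal, Urod (-0.06) became 0.01 with DESeq2 size factors and DESeq2, 0.34 with TPM, and 0.05 with only the groups compared and without ribosomal RNA. Without delayed 2 and nonunion 2, Uros became -0.19, Cpox -0.15 and Fech -0.17. In nonunion against normal, Alas1 (-0.03) became 0.06 with size factors and DESeq2, 0.03 unfiltered, 0.04 with all 12 libraries and without delayed 2 and nonunion 2, and 0.07 without ribosomal RNA. Urod (-0.04) became 0.03 with size factors and DESeq2, 0.04 with voom, 0.05 with the block and without ribosomal RNA, 0.00 with all 12 libraries, and 0.06 without delayed 2 and nonunion 2. Cpox (-0.07) became 0.01 with size factors and voom, 0.02 with DESeq2 and without ribosomal RNA, and 0.24 without delayed 2 and nonunion 2. In nonunion against delayed, Uros became 0.18 with voom, 0.03 with the block and 0.77 without delayed 2 and nonunion 2. Cpox became 0.01 with voom and 0.39 without those 2 libraries, Alad -0.05 with TPM and Urod -0.71 with TPM. Leaving out single libraries also turned signs, within these ranges. In delayed against normal they were -0.01 to 0.71 for Alas1, -0.48 to 2.87 for Alas2, -0.26 to 0.92 for Uros, -0.32 to 0.42 for Urod, -0.23 to 0.26 for Cpox and -0.23 to 0.65 for Fech. In nonunion against normal they were -0.30 to 0.21 for Alas1, -1.75 to 0.12 for Alas2, -0.36 to 0.48 for Alad, -0.26 to 0.48 for Urod and -0.24 to 0.26 for Cpox. In nonunion against delayed they were -0.45 to 0.73 for Uros, -0.15 to 0.28 for Urod and -0.27 to 0.16 for Cpox.

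No pairing by replicate number was seen in the correlations of deviations from group means. Over 18 same-numbered pairs they ran from -0.16 to 0.17, 2 were over 0.1, and 3 of 12 libraries correlated best with their own number. With 3 libraries per group, this check cannot show whether same-numbered samples share an animal or a batch. With the replicate block, 5298, 3376, 3385 and 5028 genes were called against preOP in normal, delayed, nonunion and the mean hematoma. DESeq2 gave no adjusted p for Alas2 among hematomas. The 36 reads of Slc25a37 in nonunion 2 limit its precision there.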
